A study of Mus musculus with 20 samples.

Results

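Genes of cytotoxic lymphocytes were followed here, namely Gzma, Gzmb, Prf1, Nkg7, Ccl5, Xcl1, Ifng, Klre1, Cd8a and Ms4a4a, chosen by symbol from a count table of 16003 genes. Of these 10 genes, 9 had values, and Ms4a4a was not analysed here. Unique molecular identifiers (UMIs, each marking 1 captured transcript molecule) were summed over the cells of each deposited cluster in each library and scaled to counts per 1000000 UMIs of that sum (CPM), with most weight on cluster 5, which held 764 of 21016 cells. The cells came from dissociated spinal cord of female C57BL/6J mice aged 8 to 10 weeks per the labels, which received either a sham operation or a T9 contusion spinal cord injury (SCI). Mice ate vehicle chow or chow with PLX5622 at 1200 ppm, an antagonist of the CSF1 receptor that depletes microglia, from 2 weeks before surgery until the end point. The 6 libraries were sham vehicle, vehicle at 7 and 28 days post-injury (dpi), sham PLX5622, and PLX5622 at 7 and 28 dpi, and each pooled the cells of 3 to 4 mice. Sham tissue, labelled as both 7 and 28 d, served as the reference for both times. The mice were not perfused, so lymphocytes inside blood vessels could be counted with those in the tissue.

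Cytotoxic lymphocytes, chiefly natural killer (NK) cells and CD8 T cells, kill target cells by releasing granules. Perforin (Prf1) makes pores in the target membrane, granzymes (Gzma and Gzmb) are serine proteases that enter through them, and Nkg7 is a granule membrane protein needed for efficient release. The same cells secrete Ccl5 and Xcl1, chemokines that attract leukocytes and cross-presenting dendritic cells, and Ifng, the cytokine that activates macrophages. Klre1 is a lectin-like receptor of NK cells, and Cd8a encodes a chain of the coreceptor that marks T cells restricted by class I major histocompatibility complex. In the normal spinal cord lymphocytes are few, and they enter after contusion together with far more numerous monocytes.

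Each condition was 1 library, so no test between conditions was possible and no difference between libraries could be set against replicate spread. Intervals are exact 95% intervals that cover counting error only, and fewer cytotoxic cells within cluster 5 cannot be told apart from less RNA per cell in a CPM of the cluster. Cluster 5 was checked against its markers. All 4 T cell markers with values (Cd3d, Cd3e, Cd3g and Lck) and all 5 NK markers (Ncr1, Klrb1c, Klrd1, Klrk1 and Eomes) were highest there, so it held T-like and NK-like cells together. Its cells numbered 67 in sham vehicle, 153 at 7 dpi and 349 at 28 dpi under vehicle, against 21, 23 and 151 under PLX5622. They made up between 2.06% and 4.56% of the cells in 5 libraries and 16.1% in the 28 dpi PLX5622 library. Median UMIs per cell of the cluster ranged from 1233 at 28 dpi under vehicle to 4341 in sham PLX5622. No cluster 5 barcode was shared between libraries.

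The injured vehicle libraries stood apart in their myeloid RNA. A list of 12 macrophage and microglia transcripts, such as Apoe, Ctsd and C1qa, made up 0.368% of cluster 5 UMIs in sham vehicle, 7.61% at 7 dpi and 6.8% at 28 dpi under vehicle, and 0.0766%, 0.45% and 0.454% in the sham, 7 dpi and 28 dpi PLX5622 libraries. All 12 transcripts had UMIs in the 7 dpi vehicle cells, while 7 of the 12 (Lyz2, C1qb, C1qc, Csf1r, P2ry12, Spp1 and Gpnmb) were at 0 in the sham PLX5622 cells. By the 2-fold rule defined with the comparisons, 11 of 12 were higher at 7 dpi (8.16% of all genes) and 12 of 12 at 28 dpi (7.44%) than in sham vehicle. Lower under PLX5622 than under vehicle were 7 of 8 counted in sham (4.72%), 11 of 11 at 7 dpi (8.94%) and 12 of 12 at 28 dpi (10.5%). Set against the share of the same list in the microglia-like and macrophage-like clusters of each library, cluster 5 carried 45.9% and 39% of it in the 7 and 28 dpi vehicle libraries and at most 3.62% in the other 4 libraries. These values move with each comparison below of an injured vehicle library with a sham or PLX5622 library. They move less with that of 28 against 7 dpi under vehicle, where 1 of 12 was higher (1.94% of all genes) and 1 lower (1.97%). For the genes followed here, whole-cluster ratios with an estimate of this RNA taken off the totals are given beside the results. That correction moves every ratio to sham vehicle by 0.83 at 7 dpi and 0.66 at 28 dpi under vehicle. It moves those of PLX5622 to vehicle by -0.85 at 7 dpi and -0.67 at 28 dpi. Ratios within cell classes and of the gene lists are given without it.

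Outside cluster 5 most of these genes were scarce. All 9 genes had their highest CPM in cluster 5, over all cells and within each of the 6 libraries. Between 88.6% (Prf1) and 95.8% (Ifng) of the UMIs of 8 genes lay in its 764 cells, which is a description, since the clusters were made from expression in the same cells. Ccl5 was the exception, with 66.6% of its UMIs in cluster 5 (65.7 to 67.4).

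**Figure D1:**
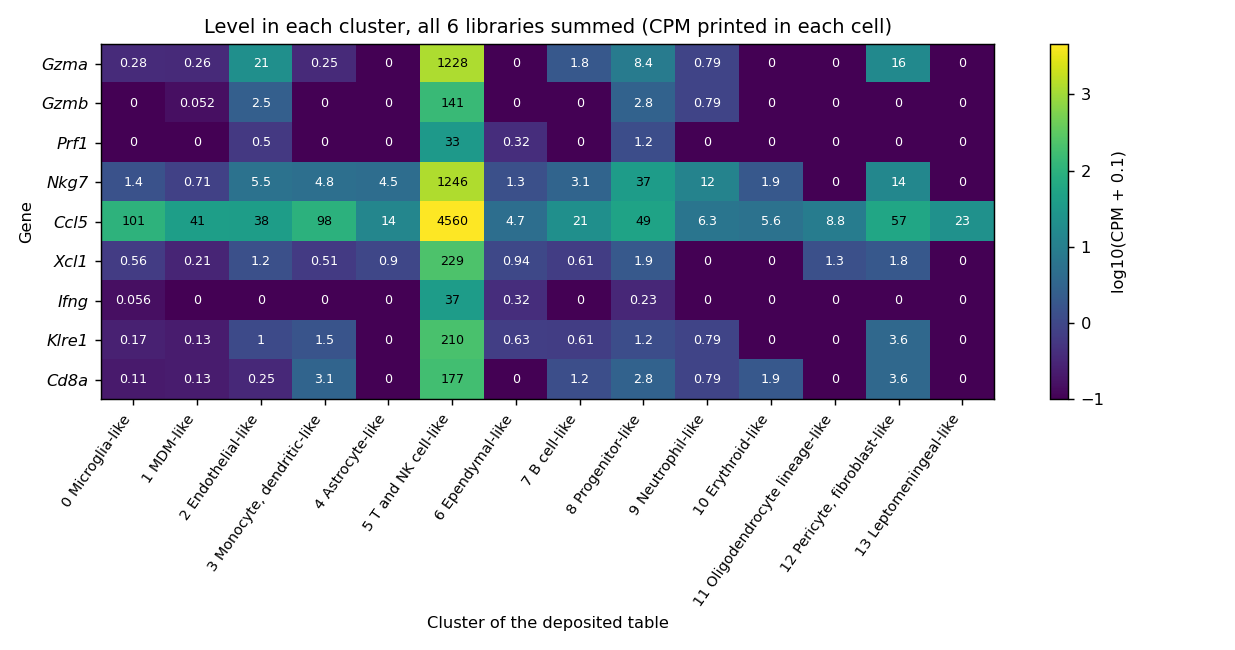
Heat map of the CPM of 9 genes (rows) in the 14 clusters (columns), with UMIs of all 6 libraries summed. Colour gives log10(CPM + 0.1) and the CPM is printed in each cell. Cluster 5 is the brightest column for every gene, and only Ccl5 has more than 0 CPM in all 14 clusters.

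Ccl5 was read in 519 of 7018 microglia-like cells, 333 of 6791 cells of the macrophage-like cluster and 51 of 1067 monocyte-like and dendritic-like cells. In the microglia-like cluster its level was 41 CPM in sham vehicle, 51.2 at 7 dpi and 146 at 28 dpi under vehicle, and 35.3, 36.5 and 403 CPM in the corresponding PLX5622 libraries. The 28 dpi library was the highest under both diets, although 131 of the 173 Ccl5 UMIs of the 126 microglia-like cells in the 28 dpi PLX5622 library came from 1 cell. Likewise, in the macrophage-like cluster at 7 dpi under PLX5622, a single cell held 306 of 315 Ccl5 UMIs. The other genes were mostly read outside cluster 5 as single UMIs. Nkg7 had 1 UMI in 93 of 131 such cells, Xcl1 in 30 of 33, Klre1 in 23 of 26 and Ifng in 3 of 3. A few cells held more. Gzma had 83 UMIs in 6 endothelial-like cells, all from the 7 and 28 dpi vehicle libraries, and Nkg7 had 160 UMIs in 37 cells of cluster 8, which was highest for markers of dividing cells such as Mki67. Whether these droplets held more than 1 cell was not tested. Barcodes of the raw matrices that the count table leaves out, up to 121 in a library, had 0 UMIs of any of these genes.

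To separate the 2 kinds of lymphocyte, cells of cluster 5 were classed by transcripts that are not among the 10 genes. Cd3 cells had a UMI of Cd3d, Cd3e or Cd3g and none of Ncr1 or Klrb1c, and NK-like cells had the reverse. Over all libraries 545 cells (71.3%) were Cd3 cells, 112 (14.7%) were NK-like, 31 had both kinds of transcript and 76 had neither. The NK-like share was 37.3% in sham vehicle (25 of 67 cells, 25.8 to 50), 18.3% at 7 dpi (28 of 153, 12.5 to 25.4) and 7.74% at 28 dpi (27 of 349, 5.16 to 11.1). Under PLX5622 it was 19% in sham (4 of 21, 5.45 to 41.9), 26.1% at 7 dpi (6 of 23, 10.2 to 48.4) and 14.6% at 28 dpi (22 of 151, 9.36 to 21.2). The intervals of sham vehicle and 28 dpi vehicle did not overlap, whereas those of the 3 PLX5622 libraries did. With each cell thinned to 1000 UMIs, which evens out depth and drops 149 shallower cells, the NK-like share was 36.1%, 14.9% and 4.98% under vehicle and 19%, 26.1% and 10.8% under PLX5622. Thinning evens out total UMIs, macrophage RNA included. Cells with neither kind of transcript made up 1.49%, 13.1% and 14% of the vehicle cells before thinning and 8.2%, 34.7% and 24.5% after it, and 23.7% of the 76 such cells had a Gzma UMI.

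**Figure D2:**
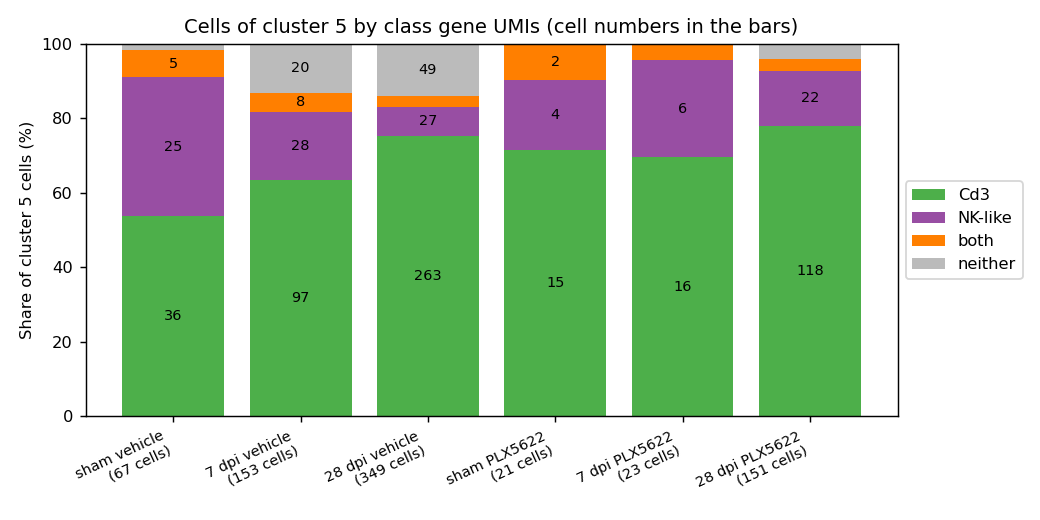
Stacked bars of the share of cluster 5 cells (%, vertical axis) in each of 4 classes, by library, with cell numbers printed in the larger segments. The NK-like segment is largest in sham vehicle (25 of 67 cells) and smallest in 28 dpi vehicle (27 of 349 cells).

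Among the granule genes, Gzma (chr13:113093825-113100981, minus strand, GRCm38) had the widest spread between libraries. Its level in cluster 5 was 3398 CPM in sham vehicle, 829.5 at 7 dpi and 378.1 at 28 dpi under vehicle, and 1572, 2187 and 1094 CPM in the sham, 7 dpi and 28 dpi PLX5622 libraries. In descending order sham vehicle was followed by 7 dpi, sham and 28 dpi PLX5622, then by 7 and 28 dpi vehicle, and no neighbours in that order had overlapping intervals. These levels rested on few cells. Of the 67 cluster 5 cells in sham vehicle 24 had a Gzma UMI, and the 5 highest held 50.5% of them, while in sham PLX5622 all 160 UMIs came from 5 cells.

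Gzmb (chr14:56258838-56262260, minus strand) had 345.6 CPM in sham vehicle, 75.66 at 7 dpi and 78.51 at 28 dpi under vehicle, and 68.77, 400.4 and 112 CPM in the 3 PLX5622 libraries. The levels formed a high pair, 7 dpi PLX5622 and sham vehicle, whose intervals overlapped, and a low group of the other 4 libraries, which overlapped among themselves. All 39 UMIs at 7 dpi under PLX5622 came from 5 cells. The mouse granzyme genes near Gzmb are close in sequence, and how reads that match several of them were counted is not given in the sources used here. Prf1 (chr10:61297833-61304680, plus strand) was counted in only 62 UMIs of the cluster. It had 68.39, 32.42 and 12.82 CPM in sham, 7 dpi and 28 dpi vehicle and 58.94, 82.12 and 22.91 CPM under PLX5622, and each library overlapped its neighbours in order of level.

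Nkg7 (chr7:43437073-43438249, plus strand) was spread over more cells than the other granule genes. It was read in 523 of the 764 cells, and its level was 2016, 859.3 and 1131 CPM in sham, 7 dpi and 28 dpi vehicle and 1444, 944.4 and 1270 CPM under PLX5622. Only sham vehicle lay apart from the library next to it, sham PLX5622. After thinning, 67.2% of sham vehicle cells and between 50.4% and 58.1% of the cells of the other 5 libraries had an Nkg7 UMI. In astrocyte-like, ependymal-like, endothelial-like and oligodendrocyte-like cells, which should lack these genes, thinned shares ran from 0 to 0.68% for the 8 genes other than Ccl5 and reached 2.45% for Ccl5. Median depths of these background cells were 1461 to 3770 UMIs.

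**Figure D3:**
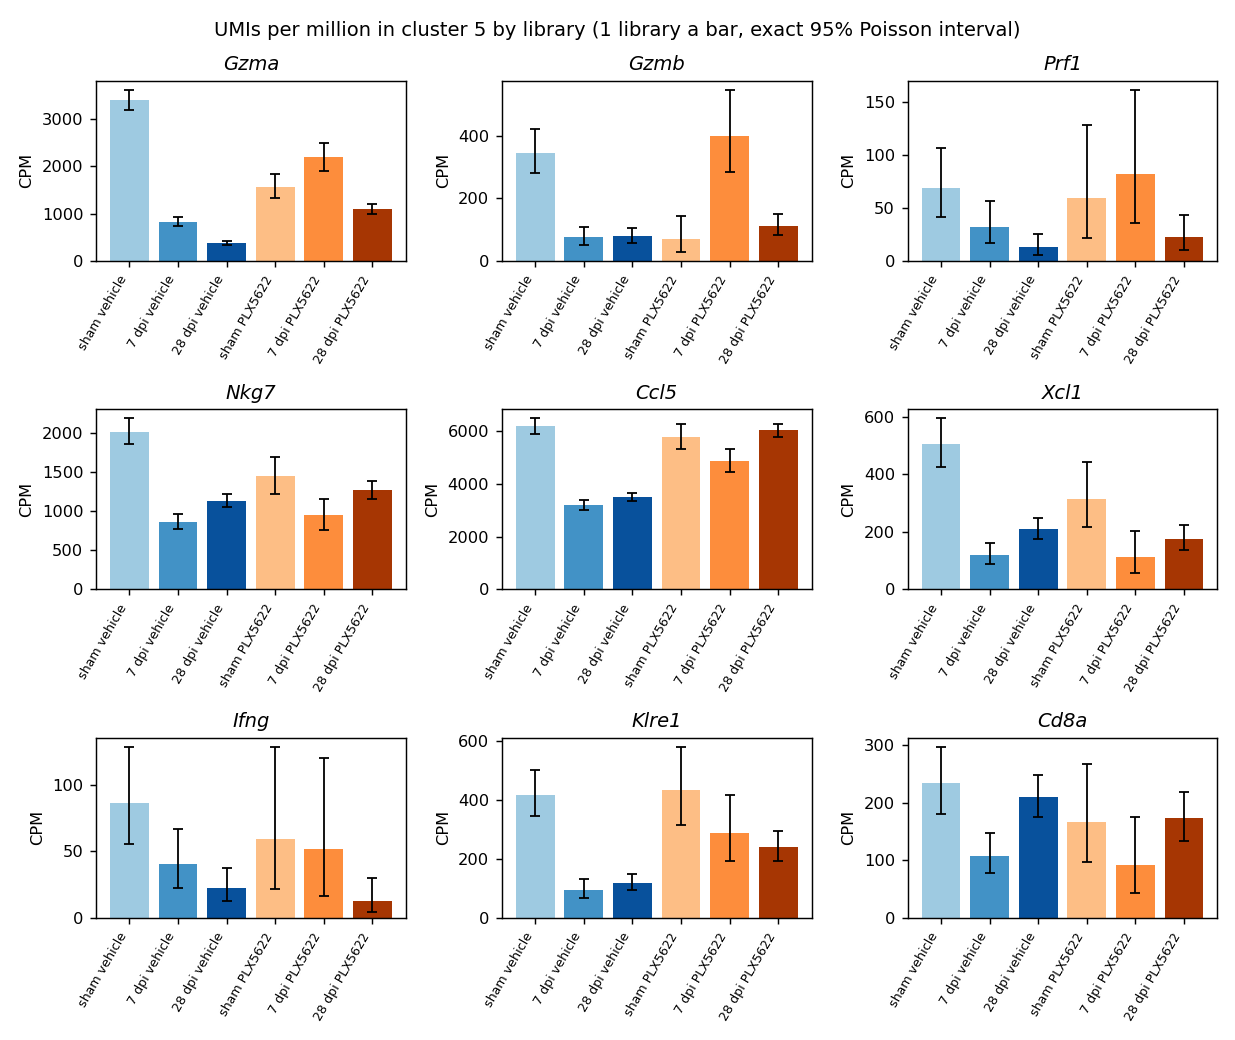
Bars give the CPM of each gene (vertical axes, different scales) in cluster 5 of the 6 libraries, blue for vehicle and orange for PLX5622, with exact 95% Poisson intervals. Under vehicle the Gzma bar is highest in sham (3398), then at 7 dpi (829.5) and 28 dpi (378.1), while 7 dpi PLX5622 is the highest bar of Gzmb (400.4).

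All 9 genes had a lower CPM in both injured vehicle libraries than in sham vehicle. Gzma, Gzmb, Nkg7 and Klre1 were picked from them after these values were seen, and a link of sequence to level was not tested. The DNA before the start sites of these picked genes is shown, from RefSeq on GRCm38.p6. Each runs 5′ to 3′ on the strand of the gene from 250 bases before the start to 50 after it, and 8 of the 9 genes had such an entry. Capitals mark matches on either strand to 3 motifs, AGGTGTGA for T-box factors, TGTGGTT for Runx factors and TGACTCA for AP-1, which did not overlap here.
Gzma: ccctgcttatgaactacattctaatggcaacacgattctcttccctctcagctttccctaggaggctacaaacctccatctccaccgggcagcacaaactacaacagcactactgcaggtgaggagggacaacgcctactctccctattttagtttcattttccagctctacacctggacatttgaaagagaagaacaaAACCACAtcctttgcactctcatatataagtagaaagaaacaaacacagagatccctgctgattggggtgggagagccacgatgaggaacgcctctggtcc
Gzmb: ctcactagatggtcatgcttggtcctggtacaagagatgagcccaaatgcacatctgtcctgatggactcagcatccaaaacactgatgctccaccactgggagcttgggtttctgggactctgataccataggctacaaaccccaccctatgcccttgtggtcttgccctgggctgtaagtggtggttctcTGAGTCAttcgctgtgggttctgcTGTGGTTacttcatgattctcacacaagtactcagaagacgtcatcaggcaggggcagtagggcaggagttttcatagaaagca
Nkg7: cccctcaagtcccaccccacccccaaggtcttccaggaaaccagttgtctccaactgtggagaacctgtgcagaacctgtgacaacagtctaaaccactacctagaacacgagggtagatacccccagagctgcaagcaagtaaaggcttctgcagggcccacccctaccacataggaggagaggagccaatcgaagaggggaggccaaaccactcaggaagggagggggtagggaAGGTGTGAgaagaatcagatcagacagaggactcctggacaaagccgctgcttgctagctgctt
Klre1: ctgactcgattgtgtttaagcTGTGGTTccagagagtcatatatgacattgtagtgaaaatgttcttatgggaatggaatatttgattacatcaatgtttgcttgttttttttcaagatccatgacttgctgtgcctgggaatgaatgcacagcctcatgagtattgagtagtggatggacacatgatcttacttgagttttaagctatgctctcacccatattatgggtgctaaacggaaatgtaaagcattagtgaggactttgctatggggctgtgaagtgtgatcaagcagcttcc
The windows are chr13:113100932-113101231 for Gzma and chr14:56262285-56262584 for Gzmb, both on the minus strand, and chr7:43436888-43437187 for Nkg7 and chr6:129577963-129578262 for Klre1, both on the plus strand. The Runx letters were in the windows of Gzma, Gzmb, Xcl1 and the first of 2 entries of Klre1, against 5.27% of 32851 promoters of the same length. The T-box letters were in that of Nkg7 alone, against 1.28%, and the AP-1 letters in that of Gzmb alone, against 5.2%. The windows of Prf1, Ifng and Cd8a and the second entry of Klre1 held none of the 3 motifs. RefSeq starts can differ from the gene ends given above, which are from GENCODE. A match is a description of the letters in the window and not evidence of a bound factor.

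Of the secreted signals, Ccl5 (chr11:83525778-83530518, minus strand) had 6191, 3183 and 3485 CPM in sham, 7 dpi and 28 dpi vehicle and 5786, 4866 and 6020 CPM under PLX5622. Sham vehicle, 28 dpi PLX5622 and sham PLX5622 overlapped at the top, 7 dpi PLX5622 lay apart below them, and the injured vehicle libraries were lowest. Xcl1 (chr1:164931644-164935527, minus strand) had 503.9, 118.9 and 209.9 CPM under vehicle and 314.4, 112.9 and 175.6 CPM under PLX5622. Both 7 dpi libraries were the lowest under their diet, although at 7 dpi under PLX5622 only 11 UMIs in 4 cells were counted. Ifng (chr10:118441046-118445892, plus strand) was rare, with 69 UMIs in all. Its level was 86.39, 40.53 and 22.43 CPM under vehicle and 58.94, 51.33 and 12.73 CPM under PLX5622, with 5 or 6 UMIs in each PLX5622 library.

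Of the receptors, Klre1 (chr6:129577905-129585827, plus strand) had 417.5, 94.57 and 118.6 CPM in sham, 7 dpi and 28 dpi vehicle and 432.2, 287.4 and 239.3 CPM under PLX5622. Both sham libraries overlapped each other, and both injured vehicle libraries lay below all 3 PLX5622 libraries without overlap. With cells thinned, 34.4%, 9.92% and 8.3% of vehicle cells and 19%, 26.1% and 16.9% of PLX5622 cells had a Klre1 UMI. Cd8a (chr6:71373427-71379173, plus strand) had 234, 108.1 and 209.9 CPM under vehicle and 167, 92.39 and 173.1 CPM under PLX5622. The lowest Cd8a level under each diet was at 7 dpi, and sham and 28 dpi overlapped under both.

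To ask how injury related to these genes, libraries were compared as log2 ratios of CPM in cluster 5. A gene was called past 2-fold where the log2 ratio was at least 1 in size and its interval did not reach 0, counting only genes whose UMIs in the pair summed to 20 or more. At 7 dpi under vehicle 7 of 9 genes were past 2-fold lower than in sham vehicle, where 10.0% of 4045 genes were, and none was higher, against 8.16%. The largest differences were in Gzmb (log2 ratio -2.19, -2.85 to -1.57), Klre1 (-2.14, -2.73 to -1.59), Xcl1 (-2.08, -2.61 to -1.59) and Gzma (-2.03, -2.22 to -1.85). Nkg7 (-1.23), Cd8a (-1.11) and Ifng (-1.09) made up the rest, and Ccl5 (-0.96) and Prf1 (-1.08, -2.25 to 0.04) were not called. Single sham vehicle cells held 64 of 140 Xcl1 UMIs, 12 of 24 Ifng UMIs and 17 of 65 Cd8a UMIs. Without the cell with the most UMIs of the gene in each library, an alternative chosen after seeing the data, Xcl1 was at -1.50 (-2.11 to -0.92), while Ifng (-0.33, -1.58 to 0.93) and Cd8a (-0.84, -1.50 to -0.19) were no longer past 2-fold, and 5 genes were. The median of the 9 genes was -1.23, beside -0.244 over all genes. With the totals reduced by the share of macrophage RNA given above, a correction chosen after seeing the data, 4 of the 9 genes (Gzma, Gzmb, Xcl1 and Klre1) were past 2-fold lower, with log2 ratios between -1.36 and -1.20. Shares of all genes past 2-fold were not computed under this correction or the other alternatives. The counts under alternatives, here and below, therefore cannot be set against such a share.

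At 28 dpi under vehicle 6 of 9 genes were past 2-fold lower than in sham vehicle, against 7.50% of 5024 genes, and none was higher, against 7.44%. Gzma was 8.99-fold lower (log2 ratio -3.17, -3.38 to -2.96), followed by Prf1 (-2.42, -3.82 to -1.16), Gzmb (-2.14), Ifng (-1.95), Klre1 (-1.82) and Xcl1 (-1.26). Nkg7 and Ccl5 were both at -0.83, and Cd8a, the T cell coreceptor, was at -0.16 (-0.60 to 0.30). Without the cell with the most UMIs in each library, Xcl1 (-0.51, -0.93 to -0.08) and Ifng (-1.22, with an interval that held 0) were no longer called and 4 genes were. The median of the genes was -1.82 beside -0.184 over all genes. With the macrophage RNA correction Xcl1 was no longer past 2-fold and 5 genes were, Gzma at -2.51 among them. In the 9 cells at 28 dpi with fewer than 3 UMIs of the myeloid list, set against 17 such cells in sham vehicle, 5 of the 6 ratios had the opposite sign, and 0 genes were past 2-fold lower. A gene without a UMI in a single library took 3 counts there, so these signs need not come from counted UMIs. So few cells could also fall short of the 20 UMIs needed for a call, so the 0 decides nothing.

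Between the injured vehicle libraries, 1 of 9 genes was past 2-fold lower at 28 than at 7 dpi (1.97% of 5219 genes), and none was higher (1.94%). That gene was Gzma (log2 ratio -1.13, -1.38 to -0.88). Cd8a (0.96, 0.44 to 1.51), Xcl1 (0.82, 0.32 to 1.35), Nkg7 (0.40, 0.20 to 0.59) and Ccl5 (0.13, 0.03 to 0.23) had intervals above 0 without reaching 2-fold, and Gzmb was at 0.05 (-0.65 to 0.78). These comparisons share libraries, so their values are set side by side and not counted as separate evidence.

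**Figure D4:**
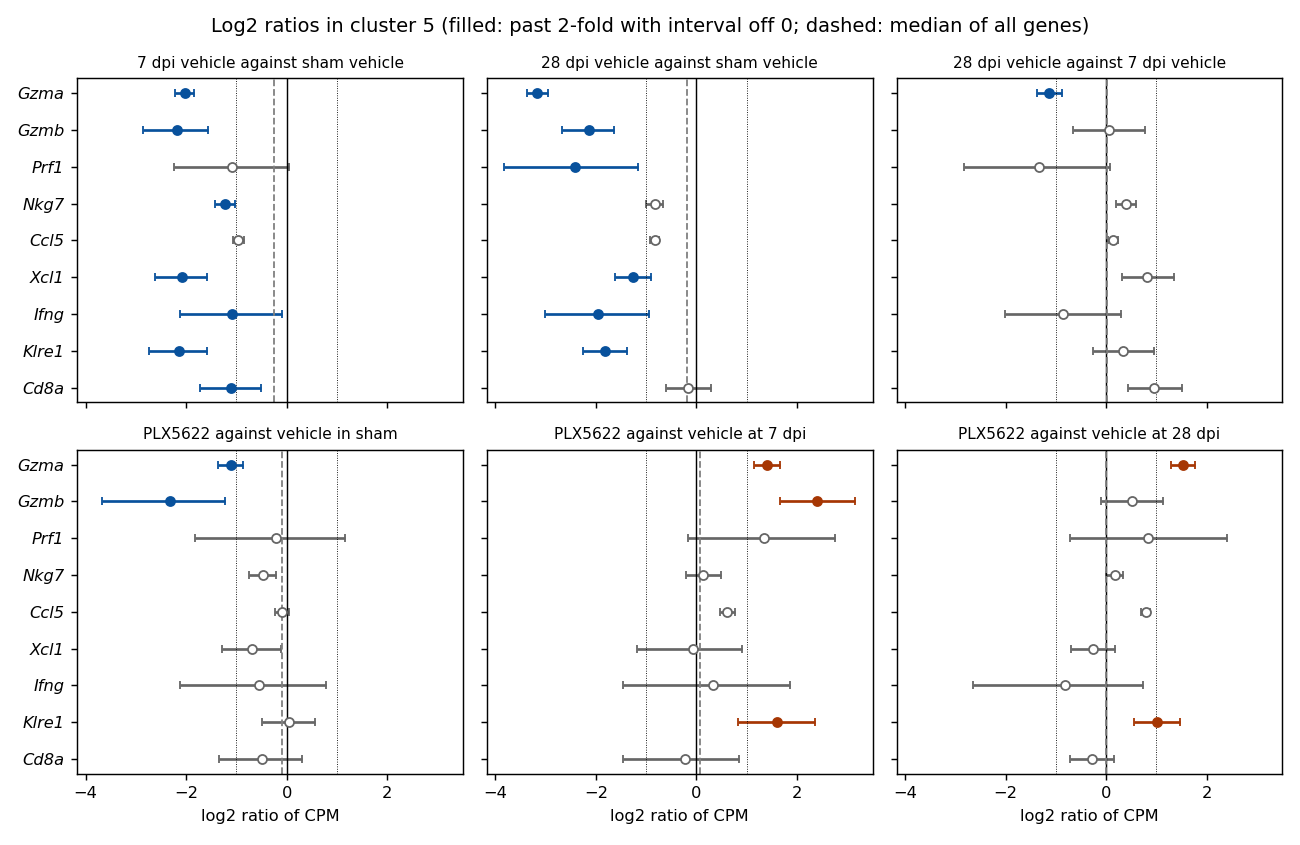
Each panel shows the log2 ratio of CPM (horizontal axis) of the 9 genes (vertical axis) for 1 pair of libraries in cluster 5, with exact 95% intervals. Filled points are past 2-fold with an interval off 0, dotted lines mark 2-fold and the dashed line is the median of all genes. Gzma is filled in all 6 panels, to the left in the 3 vehicle panels and the sham diet panel and to the right in both injured diet panels.

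The PLX5622 library was set against the vehicle library at each state, where microglia depletion cannot be told apart from other effects of the drug. In sham, 2 of 9 genes were past 2-fold lower under PLX5622 (4.72% of 2647 genes) and none was higher (2.27%). They were Gzma (log2 ratio -1.11, -1.36 to -0.87) and Gzmb (-2.33, -3.68 to -1.23), and the Gzmb value rested on 7 UMIs. Klre1 was at 0.05 (-0.49 to 0.56). At 7 dpi, 3 of 9 genes were past 2-fold higher under PLX5622 (6.44% of 2964 genes) and none was lower (8.94%). These were Gzmb (2.40, 1.67 to 3.16), Klre1 (1.60, 0.83 to 2.36) and Gzma (1.40, 1.14 to 1.66), while Nkg7 (0.14), Xcl1 (-0.07) and Cd8a (-0.23) had intervals that held 0. At 28 dpi, 2 of the 7 genes with enough UMIs were past 2-fold higher (3.89% of 5171 genes), Gzma (1.53, 1.30 to 1.77) and Klre1 (1.01, 0.56 to 1.47), and none was lower (10.5%). The medians of the genes were -0.486 in sham, 0.612 at 7 dpi and 0.512 at 28 dpi, beside -0.0959, 0.0755 and -0.0103 over all genes.

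The myeloid list had the opposite direction in the injured diet comparisons, being 7.61% against 0.45% of cluster 5 UMIs at 7 dpi and 6.8% against 0.454% at 28 dpi, vehicle first. With the correction for macrophage RNA, Gzmb at 7 dpi was at 1.56 (0.82 to 2.31), Gzma was at 0.55 at 7 dpi and 0.87 at 28 dpi, Klre1 was at 0.76 and 0.35, and Cd8a was past 2-fold lower at 7 dpi (-1.07, -2.30 to -0.01). At 28 dpi 0 genes were then past 2-fold. Leaving out the cells with the highest Scrublet scores gave 3 genes higher at 7 dpi and 0 at 28 dpi, where 273 of 349 vehicle cells and 150 of 151 PLX5622 cells remained. The number left out of a library was set by its size, at 0.8% per 1000 cells, so larger libraries lost a larger share. The sham comparison, in which 4 NK-like cells stood against 25, moved by -0.04 with the macrophage RNA correction.

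The 9 genes divided between the Cd3 and NK-like cells. Granule proteases, perforin and Klre1 were concentrated in the NK-like cells. Over all libraries Gzma had 7034 CPM in 112 NK-like cells and 37.47 CPM in 545 Cd3 cells, Gzmb 677.5 and 17.63, Prf1 180.2 and 5.878, and Klre1 922.5 and 38.21. Cd8a was the reverse, with 236.6 CPM in Cd3 cells and 0 UMIs in 112 NK-like cells, which allows a share of up to 2.68% of cells with a UMI and sets no limit on cells that express the gene. At a floor of 3 counts over the class it was at least 21.9-fold lower in NK-like cells. Nkg7 (2732 against 922.1 CPM), Ccl5 (11344.1 against 3123), Xcl1 (587.4 against 149.1) and Ifng (75.68 against 27.18) were found in both classes.

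**Figure D5:**
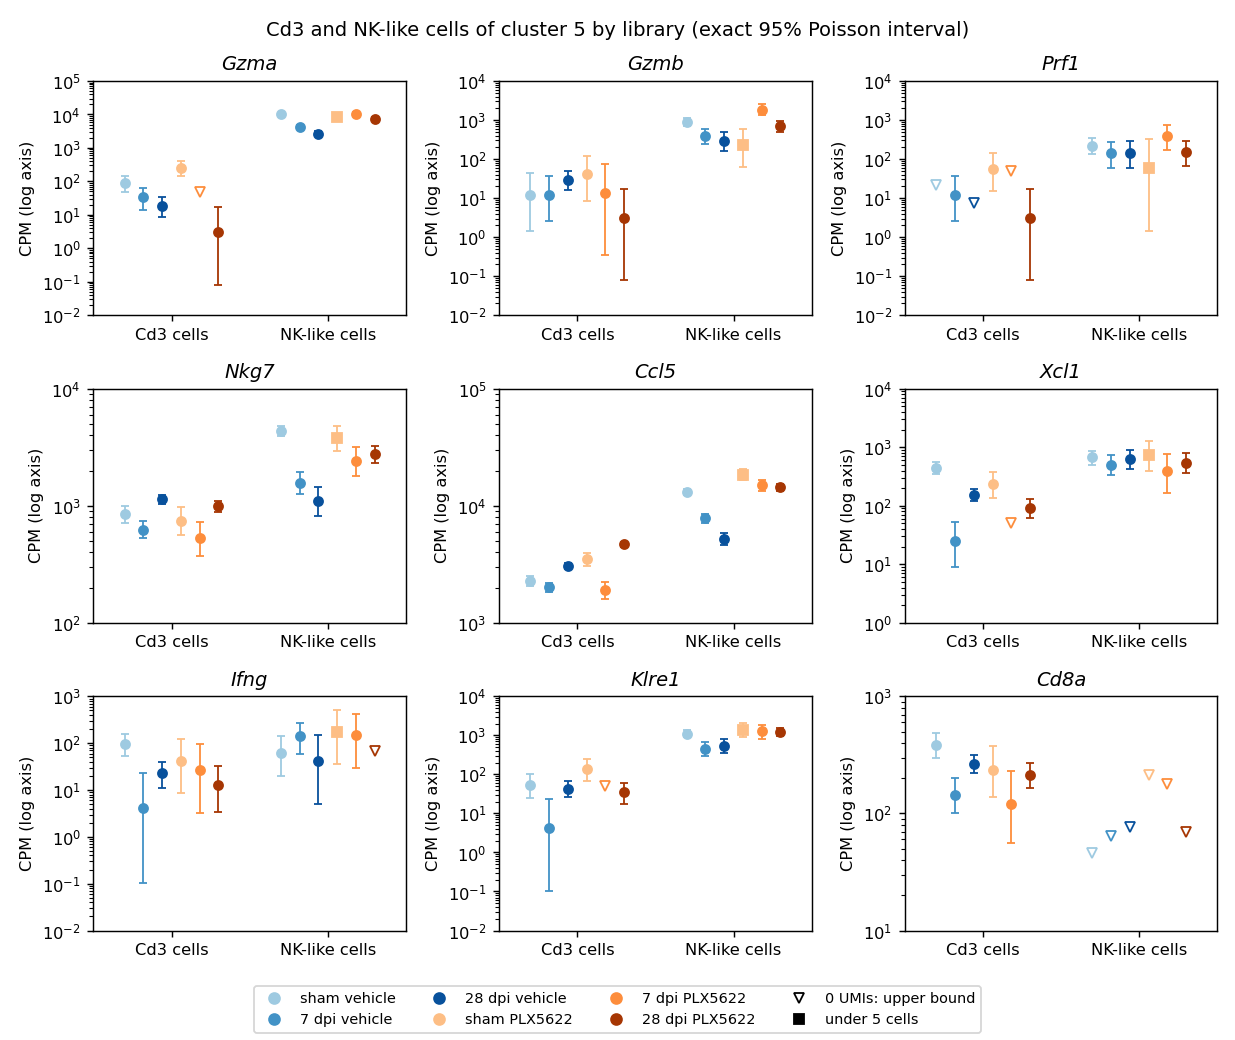
Points give the CPM (vertical log axes) of each gene in Cd3 cells and NK-like cells of cluster 5, 1 point a library, with exact 95% Poisson intervals. Open triangles are upper bounds where 0 UMIs were counted and the square is the sham PLX5622 class of 4 cells. Gzma lies between 2676 and 10366.5 CPM in NK-like cells and at or below 249.3 CPM in Cd3 cells, and Cd8a has triangles alone in NK-like cells.

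Libraries served as replicates for this contrast, paired within a library, in an exact two-sided permutation test over the 5 libraries with at least 5 cells of each class. Sham PLX5622, with 4 NK-like cells, did not enter. With 5 pairs the smallest p is 0.0625, so 0 genes could pass an adjusted p of 0.05, and 0 had an unadjusted p under 0.05. The mean difference in log2 (NK-like minus Cd3 cells) was 8.41 ± 2 (SD, n = 5) for Gzma, 5.56 ± 1.54 for Gzmb, 5.58 ± 1.46 for Prf1 and 5.36 ± 1.57 for Klre1, each higher in NK-like cells in 5 of 5 libraries. Xcl1 (3.08 ± 2.07) and Ccl5 (1.96 ± 0.849) were also higher in 5 of 5, and Cd8a (-4.33 ± 1.29) in 0 of 5. These 7 genes had the smallest p the exact test allows, 0.0625, and 0.08036 after Benjamini-Hochberg adjustment over the 9 genes. Nkg7 (1.46 ± 0.949, higher in 4 of 5, exact p = 0.125) and Ifng (1.39 ± 2.16, 3 of 5, exact p = 0.25) overlapped between the classes.

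Within the NK-like cells alone, a split chosen after seeing the data, the libraries still differed. Gzma had 10173.9 CPM in sham vehicle, 4367 at 7 dpi and 2676 at 28 dpi under vehicle, and 8178, 10366.5 and 7439 CPM under PLX5622. The log2 ratio of Gzma at 7 dpi to sham vehicle was -1.22 (interval -1.43 to -1.01), that of 28 dpi was -1.93 (-2.21 to -1.66), and PLX5622 over vehicle was -0.31 in sham, 1.25 at 7 dpi and 1.48 at 28 dpi. The smaller Gzma difference between the sham diets than in the whole cluster stood beside an NK-like share of 19% against 37.3%. Gzmb under PLX5622 over vehicle was -1.97 (-3.89 to -0.55) in sham, on 4 UMIs, 2.27 (1.48 to 3.10) at 7 dpi and 1.26 (0.34 to 2.26) at 28 dpi. The 38 Gzmb UMIs at 7 dpi under PLX5622 came from 4 of 6 NK-like cells. Xcl1 differed little between these cells, from 389.4 to 748.7 CPM, with all intervals overlapping. Myeloid list UMIs made up 8.34% and 8.29% of the injured vehicle NK-like cells at 7 and 28 dpi and at most 0.234% in the other 4 libraries, and their part in these ratios was not tested.

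Within the Cd3 cells Nkg7 and Ccl5 had another order under vehicle than in NK-like cells, whereas Gzma had the same order. Gzma was at 88.71, 32.99 and 18.55 CPM in sham, 7 dpi and 28 dpi vehicle, on 15, 8 and 9 UMIs. Under PLX5622 Gzma was at 249.3, 0 and 3.144 CPM. Ifng was at 94.63, 4.124 and 22.67 CPM under vehicle, on 16, 1 and 11 UMIs. Nkg7 had 851.7, 626.8 and 1134 CPM in sham, 7 dpi and 28 dpi vehicle and 747.9, 526.6 and 993.6 CPM under PLX5622, and Ccl5 had 2283, 2016 and 3061 CPM and 3490, 1904 and 4707 CPM. Both genes were higher at 28 than at 7 dpi under each diet, and PLX5622 over vehicle was -0.25 (-0.80 to 0.26) and -0.19 (-0.39 to 0.01) for Nkg7 at 7 and 28 dpi. Xcl1 was at 449.5 CPM in sham vehicle on 76 UMIs in 7 of 36 cells, and 1 of these cells held 64 of the UMIs. It was at 24.74 CPM at 7 dpi and 154.6 at 28 dpi under vehicle, and at 28 dpi it was read in 53 of 263 cells. Cd8a ranged from 121.5 to 384.4 CPM. Its log2 ratio of 7 dpi vehicle to sham vehicle was -1.41 (-2.05 to -0.80), and 1 sham vehicle cell held 17 of 65 UMIs.

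Cd8 and Cd4 cells among the Cd3 cells carried different sets of these genes. Cells with a UMI of Cd8a or Cd8b1 and none of Cd4 numbered 232, and 57 cells had the reverse. Nkg7 was 1309 CPM (1221 to 1401) in Cd8 cells and 314.7 CPM (234.3 to 413.8) in Cd4 cells, Ccl5 3977 and 913.3 CPM, and Xcl1 223.2 and 18.51 CPM, without overlap of the intervals. Ifng overlapped, at 37.98 and 18.51 CPM. The granule proteases were scarce in both. Gzma had 5 UMIs in 4 of the 232 Cd8 cells, Gzmb 16 UMIs in 9 cells and Prf1 7 UMIs in 7 cells, while Cd4 cells had 1 UMI each of Gzma and Gzmb and 0 of Prf1.

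Detection in single cells gave the same division. Of the 764 cells 160 had no UMI of the 9 genes, 94 cells had 5 or more of them and 0 had all 9. The share with 5 or more was 35.8%, 10.5% and 5.44% in sham, 7 dpi and 28 dpi vehicle and 33.3%, 30.4% and 13.9% under PLX5622. These cells were not thinned, and their median depth fell in the same order within each diet. It was 3669, 1510 and 1233 UMIs under vehicle and 4341, 3617 and 2507 under PLX5622, and its part in these shares was not tested. Among 123 cells with a Gzma UMI, 72.4% had Klre1, 46.3% Gzmb and 31.7% Prf1, against 8.58%, 3.12% and 1.56% of the cells without Gzma. Cd8a was read in 3.25% of the Gzma cells and 25.7% of the rest, and Gzma in 2.37% of 169 Cd8a cells. Nkg7 was read in 91.7% of the Cd8a cells and 95.1% of the Gzma cells. The Gzma cells were somewhat deeper, with a median of 2035 UMIs against 1666.

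Other genes were ranked by the correlation of log2(CPM + 1) with each gene over 66 sums of cluster and library, as a description across 12852 genes that share libraries and depth. Gzma was most like Klrb1c (Pearson r = 0.97), Klre1 and Ncr1 (both 0.94), and Klre1 was most like Klrc1 (0.94), all receptors of NK cells besides Gzma itself. Gzmb was most like Sh2d2a (0.97), an adaptor of T and NK cells. Xcl1 was most like Fasl (0.93), the ligand of a death receptor, and Cd8a most like Cd8b1 (0.96), the other chain of the coreceptor. Nkg7 was most like Ms4a4b (0.90), a membrane protein of T and NK cells, and Ccl5 had the lowest top value (0.77, Icos). Prf1 and Ifng had too few UMIs to be compared.

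Lists of related genes placed the 9 genes in their pathway. Of 9 genes of the T cell receptor complex and coreceptors with values, all 9 were highest in cluster 5, and 1 (Cd247) was past 2-fold lower than in sham vehicle at 7 dpi and again at 28 dpi, with list medians of -0.844 and -0.283. Cd3d was at 698, 449 and 606 CPM under vehicle and 1110, 667 and 937 CPM under PLX5622. The shares of all genes past 2-fold, given with each comparison, hold for these lists too. List ratios and calls are without the macrophage RNA correction. Of the NK cell genes 9 of 13 were past 2-fold lower at 7 dpi (10.0% of all genes) and 9 of 14 at 28 dpi (7.50%) under vehicle, with medians of -1.66 and -2.13, and 1 was higher each time. That gene was Tyrobp, an adaptor that macrophages also express, highest in the macrophage-like cluster. Ncr1, an activating NK receptor, was at 360, 103 and 35.2 CPM under vehicle and 177, 246 and 89.1 CPM under PLX5622. Under PLX5622 against vehicle, NK genes were past 2-fold higher for 3 of 10 at 7 dpi (Ncr1, Klrk1 and Klrc1, against 6.44% of all genes) and 4 of 13 at 28 dpi (3.89%), while Fcer1g and Tyrobp were lower both times (8.94% and 10.5%), and in sham 5 of 13 were lower (4.72%). Klrd1, a partner chain of NK receptors, was at 742, 189 and 269 CPM under vehicle and 521, 359 and 479 CPM under PLX5622.

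Among other granule and killing genes, 3 of 7 were past 2-fold lower at 7 dpi under vehicle (Ctsw, Fasl and Serpinb6b, against 10.0% of all genes) and 1, the lysosomal Lamp1, was higher (8.16%). At 28 dpi 3 of 10 were lower (7.50%) and 2 higher (7.44%), the second being Gzmc, all of whose 39 UMIs came from the 28 dpi vehicle library. Cxcr3, a chemokine receptor of activated T and NK cells, was highest in cluster 5, while Xcr1, the receptor of Xcl1, had its highest level in the monocyte-like and dendritic-like cluster. Of 7 genes of the interferon gamma receptor and response counted at 7 dpi under vehicle, 1 was past 2-fold lower (Irf1) and 1 higher (Ifngr2), against 10.0% and 8.16% of all genes, and at 28 dpi 0 were lower and 1 was higher. In the Ms4a family Ms4a4b had 1890, 792 and 1130 CPM under vehicle and 1420, 1310 and 1470 CPM under PLX5622, and the 3 members called higher in both injured vehicle libraries (Ms4a6c, Ms4a6d and Ms4a7) were highest in monocyte-like or macrophage-like clusters. Of the naive, memory, helper and innate lymphoid genes, 0 of 9 were past 2-fold higher and 2 lower at 7 dpi under vehicle, and 5 of 9 were higher under PLX5622 than under vehicle at 7 dpi (6.44% of all genes), Il7r among them with 1150 against 340 CPM.

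The level of a gene over all cells of a library depends both on the share of lymphocytes among them and on the level within the lymphocytes. Gzma was 132 CPM of all UMIs in sham vehicle, 11.2 in the 7 dpi vehicle library and 10.4 in that of 28 dpi, while the PLX5622 libraries had 61.4, 48.9 and 117 CPM. Nkg7 was 84.8, 12.1 and 29.5 CPM under vehicle and 56.8, 21.1 and 140 CPM under PLX5622. The 28 dpi PLX5622 library, in which cluster 5 made up 16.1% of the cells, had the highest level over all cells of Nkg7, Ccl5 (746 CPM), Xcl1 (19.7), Klre1 (26.5) and Cd8a (21.6). For Xcl1 this was within the interval of sham vehicle (19.6). PLX5622 depletes microglia, and cluster 5 made up 4.27% and 4.56% of the cells in the sham and 7 dpi PLX5622 libraries. In such shares a larger number of lymphocytes cannot be told apart from fewer other cells, and the cause was not tested.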

How the data were processed

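Dissociated spinal cord cells of 6 single-cell libraries were analysed, and bulk RNA-seq of the study was not analysed here. The authors aligned reads to GRCm38 and counted UMIs with Cell Ranger, then filtered, integrated and clustered cells with Seurat, and the deposited values are raw counts of UMIs per gene and cell with a cluster number per cell. UMIs per library ranged from 2606149 to 35694246. The 10 genes and all gene lists were chosen with earlier results of these data known.

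Counts were summed by cluster and library with Python 3.11.15 (numpy 2.4.6, scipy 1.17.1). Intervals were exact Poisson for CPM, exact conditional binomial for ratios and Clopper-Pearson for shares, all at 95%. Where a single library of a pair had no UMI of a gene, 3 counts stood in for it. Classes were compared with an exact paired permutation test on log2 values with 0.5 UMIs added. With 1 library per condition, no test between conditions was made. Cells were thinned with a fixed seed to 1000 UMIs, and doublets, kept in the main values, were scored with Scrublet in scanpy 1.11.5. The highest scores of each library were called doublets, at a preset rate of 0.8% per 1000 cells. Clusters were named from marker genes. All 9 genes are named. List genes given with levels had at least 50 UMIs in cluster 5, and those named for passing 2-fold, with Gzmc and Xcr1, were named after their values were seen. Genes named as most alike were among the top 3 by correlation. Alternatives used the factors of edgeR 4.0.16 and DESeq2 1.42.0 for scaling alone, other cell filters and other minimums, and the ratio calculation was tested on simulated data. Gene positions came from GENCODE on GRCm38.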

Additional observations from a re-analysis of the deposited data

Results flagged for a closer look

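Gzma in cluster 5 had opposite directions between diets in sham and injured tissue. Its log2 ratio of PLX5622 over vehicle was -1.11 in sham, 1.40 at 7 dpi and 1.53 at 28 dpi. The interval of the sham ratio did not overlap those of the injured ratios, but these intervals cover counting error only. Within NK-like cells the sham ratio was -0.31 (-0.58 to -0.06), and the injured ratios of the cluster were smaller with the macrophage RNA correction. Gzmb also had opposite directions, at -2.33 in sham and 2.40 at 7 dpi. The difference between states was not tested, since each condition was 1 library. The sham PLX5622 values rested on 21 cells, of which 5 held all 160 Gzma UMIs and 1 held 74 of them.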

How the results depend on the processing

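All 9 genes were highest in cluster 5 under each of the 4 alternatives run for that result. The Cd3 and NK-like contrast gave 0 genes throughout (0 to 0 without each library in turn), which says nothing of its stability, since no p under 0.05 could be reached with 5 pairs. The counts that follow have no share of all genes beside them, since none was computed under the alternatives. At 7 dpi against sham under vehicle, 7 genes past 2-fold lower became 4 with TMM factors, DESeq2 size factors, each cell weighted alike, cells not called doublets, and totals less the macrophage RNA. At 28 dpi against sham, 6 became 3 with cells thinned to 1000 UMIs and 0 in cells with fewer than 3 myeloid list UMIs. For 28 against 7 dpi, 1 lower became 2 in cells with at least 500 genes or with totals less the macrophage RNA, and 0 without doublets, and 0 higher became 1 with each cell weighted alike or without the cell with the most UMIs of the gene in each library, and 2 without doublets. For PLX5622 against vehicle at 7 dpi, totals less the macrophage RNA gave 1 higher and 1 lower. At 28 dpi, 2 higher became 1 with TMM factors, each cell weighted alike or without the top cell, and 0 without doublets, in cells with few myeloid UMIs and with totals less the macrophage RNA, and 0 lower became 1 in cells with few myeloid UMIs. Ratios turned direction in cells with fewer than 3 myeloid list UMIs alone, of which 1 to 46 remained per library. There, 28 dpi against sham vehicle was 2.61 for Gzmb, 3.20 for Prf1, 1.29 for Ifng, 2.61 for Xcl1 and 1.39 for Klre1, Gzmb in sham was 0.04, and Gzma and Klre1 at 28 dpi were -0.21 and -0.11 between the diets. As 3 counts stood in wherever a single library had no UMI, these directions need not come from counted UMIs. Comparisons at 7 dpi could not be made in those cells, since 2 vehicle and 1 PLX5622 cells remained. TMM factors moved all ratios of 7 and 28 dpi to sham vehicle by 0.29 and 0.28 and those between diets at 7 dpi by -0.32. The macrophage RNA correction and the top cell alternative were added after seeing the data, and the cause of the other differences was not tested. Depth limited Prf1 and Ifng, with 5 to 24 UMIs per library.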
